A study of Mus musculus with 10 samples.

Results

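The subject is how 10 mouse brain cortex libraries differ between those with high and those with low Ttr, the transcript of transthyretin. The libraries were chosen by their measured Ttr level: those with at least 500 FPKM (a read count corrected for the length of the gene and for library size) were placed in a high class, which holds 6 of the 10 libraries, and the other 4 were placed in a low class. The high class holds BKO 1, 2 and 5 and ctrl 1, 3 and 5, and the low class holds BKO 3 and 4 and ctrl 2 and 4. BKO libraries come from cortex of mice labelled as Mic19 knockouts and ctrl libraries from cortex of mice labelled as wild type for Mic19. All mice were 6 months old and none was treated, and each genotype has 5 libraries made from Trizol-extracted total RNA with an MGIEasy kit. The labels do not say which cells lost the gene, what drives the deletion, or that each library is a separate mouse, so the p-values below measure only the spread between these libraries.

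The choroid plexus is a folded sheet of secretory epithelium that lies in the brain ventricles and makes cerebrospinal fluid. Within the brain its epithelial cells are the main source of transthyretin, a carrier of thyroid hormone, and they also carry a characteristic set of transporters, channels and secreted proteins. The cerebral cortex itself holds no choroid plexus, but the lateral ventricles lie close beneath it. In bulk tissue fewer cells of a type and less RNA per cell cannot be told apart, and neither can choroid plexus tissue in a sample be told apart from transcription of the same genes in other cells.

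The summed FPKM was 730340 to 766786 in the high libraries and 741400 to 760811 in the low libraries. Between 13560 and 13720 genes reached 1 FPKM in the high libraries, against 13438 to 13585 in the low libraries. An approximate relative depth, read from the steps between low values of 162 genes, was 0.869 to 1.28 in the high libraries and 0.840 to 1.02 in the low libraries, and absolute depth is unknown. Chchd3, the gene that encodes Mic19, a subunit of the complex that shapes mitochondrial cristae, was not lower under the knockout label. It had 88.2 ± 4.54 FPKM in the libraries labelled BKO and 78.4 ± 3.53 FPKM in ctrl libraries (SD, n = 5 each; limma adjusted p = 0.0555), so genotype directions below are those of the labels. Slc17a7, the vesicular glutamate transporter of cortical excitatory neurons, had 635 ± 40.6 FPKM in high libraries and 674 ± 15.8 FPKM in low libraries (SD, n = 6 and n = 4).

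Ttr set the classes, so its values are given as a description with no test. Among the high libraries Ttr had 2632, 2384 and 2720 FPKM in BKO 1, 2 and 5, and 2568, 1531 and 1098 FPKM in ctrl 1, 3 and 5. Among the low libraries it had 89.9 and 67.2 FPKM in BKO 3 and 4, and 39.8 and 38.9 FPKM in ctrl 2 and 4. No library lay near the threshold: the lowest high library, ctrl 5, had 12.2 times the Ttr of the highest low library, BKO 3. Ttr made up 0.143% to 0.360% of the summed FPKM of the high libraries and 0.00517% to 0.0120% of that of the low libraries.

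The 5 other choroid plexus markers were each higher in all 6 high libraries than in any low library. These markers are Folr1, Kl, Aqp1, Clic6 and Kcnj13, and their summed level was 18.1 to 40.0 FPKM in the high libraries and 3.94 to 6.17 FPKM in the low libraries. Folr1, which carries folate across the epithelium, had a lowest, median and highest level of 5.03, 7.48 and 10.6 FPKM in the high libraries, against 0.19 and 0.57 FPKM in BKO 3 and 4 and 0.21 and 1.10 FPKM in ctrl 2 and 4. Its difference, high minus low, was 3.03 on the log2(FPKM + 0.5) scale (SE 0.248), a scale that understates the change of genes with low levels. The 2 classes lay far apart for this gene, and ctrl 5 was the lowest of the high libraries.

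Kcnj13, an inwardly rectifying potassium channel of the apical membrane, had 3.19, 7.54 and 10.4 FPKM (lowest, median, highest) in the high libraries and 0.34, 1.01, 1.11 and 1.26 FPKM in BKO 3, BKO 4, ctrl 2 and ctrl 4 (log2 difference 2.44, SE 0.276). Clic6, a chloride channel protein, had 5.78, 9.40 and 9.85 FPKM in the high libraries and 1.87 to 2.32 FPKM in the low libraries (1.79, SE 0.136). Here ctrl 3, not ctrl 5, was the lowest of the high libraries. Kl encodes klotho, a co-receptor for fibroblast growth factor 23, and had 2.53, 7.37 and 8.44 FPKM in the high libraries against 1.19 to 1.44 FPKM in the low libraries (1.85, SE 0.232). Aqp1, the water channel of the apical membrane, had 0.29, 2.81 and 4.12 FPKM in the high libraries, and 0.09, 0.18, 0 and 0.08 FPKM in BKO 3, BKO 4, ctrl 2 and ctrl 4 (2.13, SE 0.319). The classes came nearest to each other for Aqp1, where ctrl 5 stood little above the low libraries.

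**Figure D1:**
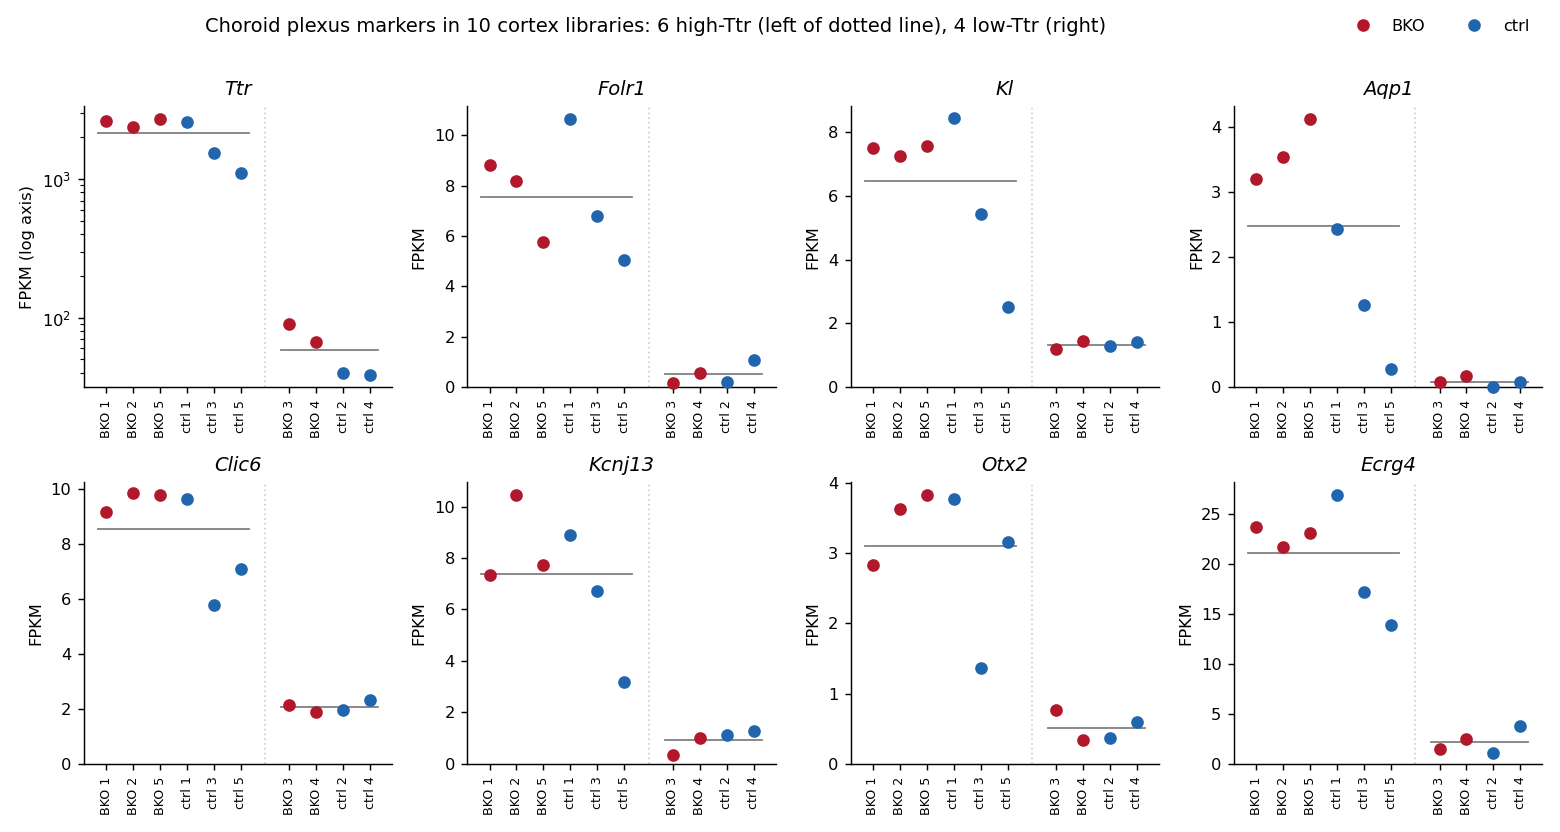
FPKM of Ttr (log axis) and of 7 choroid plexus genes in each library, with the 6 high-Ttr libraries left of the dotted line and the 4 low-Ttr libraries right of it (points, libraries coloured by genotype; bars, class means). Every gene shown is higher in each high library than in each low library, and ctrl 5 is the lowest of the high libraries for Ttr, Folr1, Kl, Aqp1, Kcnj13 and Ecrg4.

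Across all genes tested other than Ttr, 29 of 14446, or 0.201%, passed an adjusted p under 0.05 for high minus low in limma with genotype as a covariate, and all 29 were higher in the high libraries. None passed in the other direction with all 10 libraries, and 805 genes had an unadjusted p under 0.05 in either direction. The filter on low values, 0.5 FPKM in at least 5 libraries, can be met by the 6 high libraries alone and not by the 4 low ones alone, so it could admit genes seen in the high class only and none seen in the low class only. It admitted 17 genes with no low library at 0.5 FPKM, of which 10 are among the 29. No gene of the whole table reached 0.5 FPKM in all 4 low libraries and in no high library. Because the classes were cut on Ttr in these same libraries, these counts describe which genes vary with Ttr and carry no further support. Log2 differences of the 29 genes ran between 0.50 and 3.07, and 25 exceeded 1. For 27 of them no high library overlapped a low library, while 94 of all genes (0.651%) lay wholly above and 63 (0.436%) wholly below. The 2 that overlapped, Col9a3 and Apln, did not overlap within either genotype. With each library left out in turn, 21 of the 29 passed every time, and Aqp1, Apln, Calml4, Cibar2, Msx1, Sema3b, Trpm3 and Wdr86 did not pass without 1 or more of the libraries. One gene passed as lower without ctrl 5 (Etfrf1, -0.40) and another without BKO 1 (Pet117, -0.60), both named after their values were seen.

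**Figure D2:**
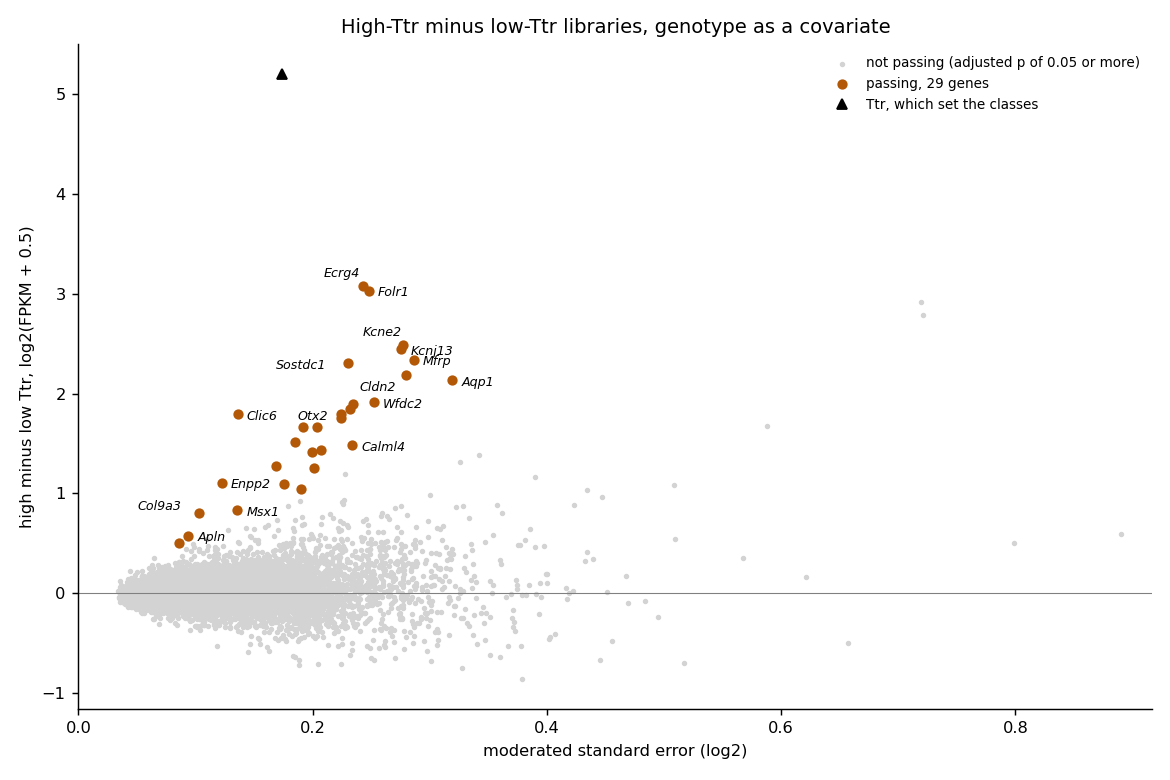
High minus low difference on the log2(FPKM + 0.5) scale (vertical axis) against its moderated standard error (horizontal axis) for every gene tested; orange points are the 29 genes that passed, grey points those that did not, and the triangle is Ttr. All orange points lie above 0, up to 3.07 for Ecrg4, and the grey points near 2.8 and 2.9 with wide errors are Avp and Oxt.

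Of the 29 genes, 23 belong to lists of choroid plexus genes. These lists hold 91 genes besides Ttr, of which 76 had enough signal to be tested, and 23 of the 76 (30.3%) passed beside 0.201% of all genes. Of these 23, 9 had no low library at 0.5 FPKM, so they met the filter through the high libraries alone and had to differ, and the share is a description only. Of the 76, 66 had a positive difference, with a median of 0.42 on the log2 scale, beside 51.5% positive and a median of 0.00314 over all genes. Among members that did not pass with all 10 libraries, Car12 (0.60), Ace (0.75) and Trpv4 (1.07) did so without ctrl 5, and Cox8b (1.63) without BKO 2. The 15 members under the filter never exceeded 1.18 FPKM in any library and include Lrp2, Cldn3, Cldn9, Krt8, Epcam, Cdh1, Lmx1a and Tfap2a. These lists were made with earlier results of these data known.

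In the list of secreted proteins, which also holds the receptor Prlr, 8 of 17 tested members passed. Prlr is counted again in the list of receptors. Ecrg4, which encodes the precursor of the secreted peptide augurin, had 13.9, 22.4 and 26.9 FPKM (lowest, median, highest) in the high libraries and 1.48, 2.44, 1.08 and 3.78 FPKM in BKO 3, BKO 4, ctrl 2 and ctrl 4. On the log scale used it had the largest difference of the 29, 3.07 (SE 0.243), and its classes were well apart. That rank depends on the constant added to FPKM before the log. With a constant of 0.1, Ecrg4 had 3.32, while Folr1 (3.83), Cldn2 (3.80), Aqp1 (3.52) and Kcne2 (3.47) had larger differences. Sostdc1, an antagonist of bone morphogenetic protein and Wnt signals, had 5.29 ± 1.44 FPKM in high libraries and 0.688 ± 0.414 FPKM in low libraries (2.30, SE 0.230). Wfdc2, a protein with protease-inhibitor-like domains, differed by 1.91 (SE 0.253), F5, coagulation factor V, by 1.90 (SE 0.234), Prlr, the prolactin receptor, by 1.67 (SE 0.192), and Lbp, the lipopolysaccharide-binding protein, by 1.42 (SE 0.199). Enpp2, autotaxin, which makes lysophosphatidic acid and is also made by oligodendrocytes, had 169, 206 and 272 FPKM in the high libraries and 75.9, 76.4, 120 and 125 FPKM in BKO 3, BKO 4, ctrl 2 and ctrl 4 (1.11, SE 0.123). Its low libraries kept a substantial level, so the class ratio was smaller than for Ecrg4. Igf2, a growth factor made by choroid plexus and meninges, did not pass with all 10 libraries: BKO 4, a low library, had 32.5 FPKM, the highest of all 10, beside 14.7 to 29.3 FPKM in the high libraries. Without BKO 4, Igf2 did pass (1.02).

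Of the ion and water transport genes 6 of 17 passed. Kcne2, a potassium channel subunit, had 3.96 ± 1.68 FPKM in high libraries and 0.250 ± 0.121 FPKM in low libraries (2.49, SE 0.277). Slc4a5, a sodium bicarbonate cotransporter, had 0.64, 1.93 and 2.10 FPKM in the high libraries and 0.05 to 0.12 FPKM in the low libraries (1.75, SE 0.224). Trpm3, a cation channel that cortical cells also express, had 11.0 ± 1.35 FPKM in high libraries and 7.63 ± 0.922 FPKM in low libraries, the smallest difference of the 29 (0.50, SE 0.0864). Slc12a2, a sodium, potassium and chloride cotransporter that brain cells express widely, did not pass (0.12, SE 0.0677).

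Solute transporters had 2 of 15 members that passed, Folr1 and Steap1, a metalloreductase (1.43, SE 0.207). Receptors and other membrane proteins had 5 of 14, with Kl, Prlr, Mfrp, Tmem72 (1.67, SE 0.203) and Calml4, a calmodulin-like protein (1.48, SE 0.234). Calml4 had 3.38 to 4.17 FPKM in the high libraries, and in the low libraries BKO 4 stood out at 2.68 FPKM beside 0.95 FPKM in BKO 3 and 0.59 and 0.60 FPKM in ctrl 2 and 4. Cldn2, a claudin that forms cation-permeable tight junctions, was the member that passed of 4 junction and keratin genes, with 0.60, 2.65 and 3.32 FPKM in the high libraries and 0 to 0.19 FPKM in the low libraries (2.19, SE 0.280). Of 10 transcription factors 2 passed, the homeobox factors Otx2 and Msx1. Msx1 had 3.12 ± 0.360 FPKM in high libraries and 1.55 ± 0.364 FPKM in low libraries (0.83, SE 0.136).

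Otx2, which is needed for choroid plexus development, had 1.36, 3.40 and 3.84 FPKM (lowest, median, highest) in the high libraries and 0.76, 0.33, 0.37 and 0.60 FPKM in BKO 3, BKO 4, ctrl 2 and ctrl 4 (1.79, SE 0.224). Mfrp, a membrane protein also made by the retinal pigment epithelium, had 1.01, 4.41 and 5.23 FPKM in the high libraries and 0.17 to 0.32 FPKM in the low libraries (2.34, SE 0.287). Both genes were apart between the classes. Their start-site windows are shown because they are the windows among the 29 genes that hold GGATTA, the core word bound by Otx factors. Each window covers 250 bases before and 50 bases after the annotated start in RefSeq on build GRCm38.p6, which is not the mm39 build of the deposited values. The Mfrp window is chr9:44101520-44101819, plus strand, and the Otx2 window is chr14:48665060-48665359, minus strand. Capitals mark GGATTA.
Mfrp: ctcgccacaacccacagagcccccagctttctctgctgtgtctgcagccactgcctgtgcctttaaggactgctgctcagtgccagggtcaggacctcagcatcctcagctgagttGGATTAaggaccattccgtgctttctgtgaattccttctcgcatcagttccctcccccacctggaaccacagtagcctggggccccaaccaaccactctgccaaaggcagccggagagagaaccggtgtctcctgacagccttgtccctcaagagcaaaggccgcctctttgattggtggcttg
Otx2: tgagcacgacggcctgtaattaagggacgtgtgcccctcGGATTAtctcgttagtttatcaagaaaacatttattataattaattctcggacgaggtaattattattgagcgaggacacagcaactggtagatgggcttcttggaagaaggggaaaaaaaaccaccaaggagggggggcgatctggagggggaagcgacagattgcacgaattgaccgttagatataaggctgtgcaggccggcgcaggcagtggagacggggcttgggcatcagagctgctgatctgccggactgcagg
GGATTA was searched on both strands, where it reads TAATCC on the other, and it was in 2 of 30 windows of the 22 genes with a window (6.67%), beside 7.06% of all 32851 windows. The forkhead word GTAAACA, or TGTTTAC on the other strand, was in 1 of the 30 (3.33%), at Prlr, beside 3.65% of all windows. These shares are near those of all windows, and a match is a description of letters only.

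The other 6 of the 29 genes are in none of the lists and are named after their values were seen. Drc7, a component of the dynein regulatory complex of motile cilia, had 2.66 ± 0.644 FPKM in high libraries and 0.798 ± 0.205 FPKM in low libraries (1.27, SE 0.169). Sema3b, a secreted semaphorin, had 1.20 to 2.62 FPKM in the high libraries and 0.54 to 0.84 FPKM in the low libraries. Prr32 had 1.23 to 2.54 FPKM against 0.09 to 0.46 FPKM, Wdr86 1.00 to 1.98 FPKM against 0.06 to 0.64 FPKM, and Cibar2 1.24 to 1.87 FPKM against 0.24 to 0.80 FPKM, high libraries given first. Apln, the ligand of the apelin receptor, differed by 0.58 (SE 0.0939) and overlapped between the classes, and it also differed by genotype, with values below.

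None of the 21 lists outside the choroid plexus had a member that passed for high minus low in the fit with genotype as its covariate and all 10 libraries. Multiciliated and ependymal cells, which line the ventricles, had 0 of 25 tested members that passed, 21 of 25 positive and a median of 0.23. Foxj1, the master regulator of motile cilia, had 5.25 ± 0.937 FPKM in high libraries and 4.62 ± 1.01 FPKM in low libraries (0.17, SE 0.143), and the classes overlapped. Medians were 0.07 for the 21 meningeal and fibroblast genes, -0.09 for the 14 endothelial genes, 0.14 for the 16 thalamic and habenular genes and -0.06 for the 15 genes of excitatory cortical layers. The 29 tested type I interferon genes had a median of 0.17 with 25 positive and none that passed, although Cxcl10 (1.32, SE 0.326) did pass without ctrl 3. Haemoglobin transcripts summed to 230 to 732 FPKM in the high libraries and 206 to 350 FPKM in the low libraries, with BKO 5 at 732 FPKM and the next highest high library, ctrl 5, at 326 FPKM.

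**Figure D3:**
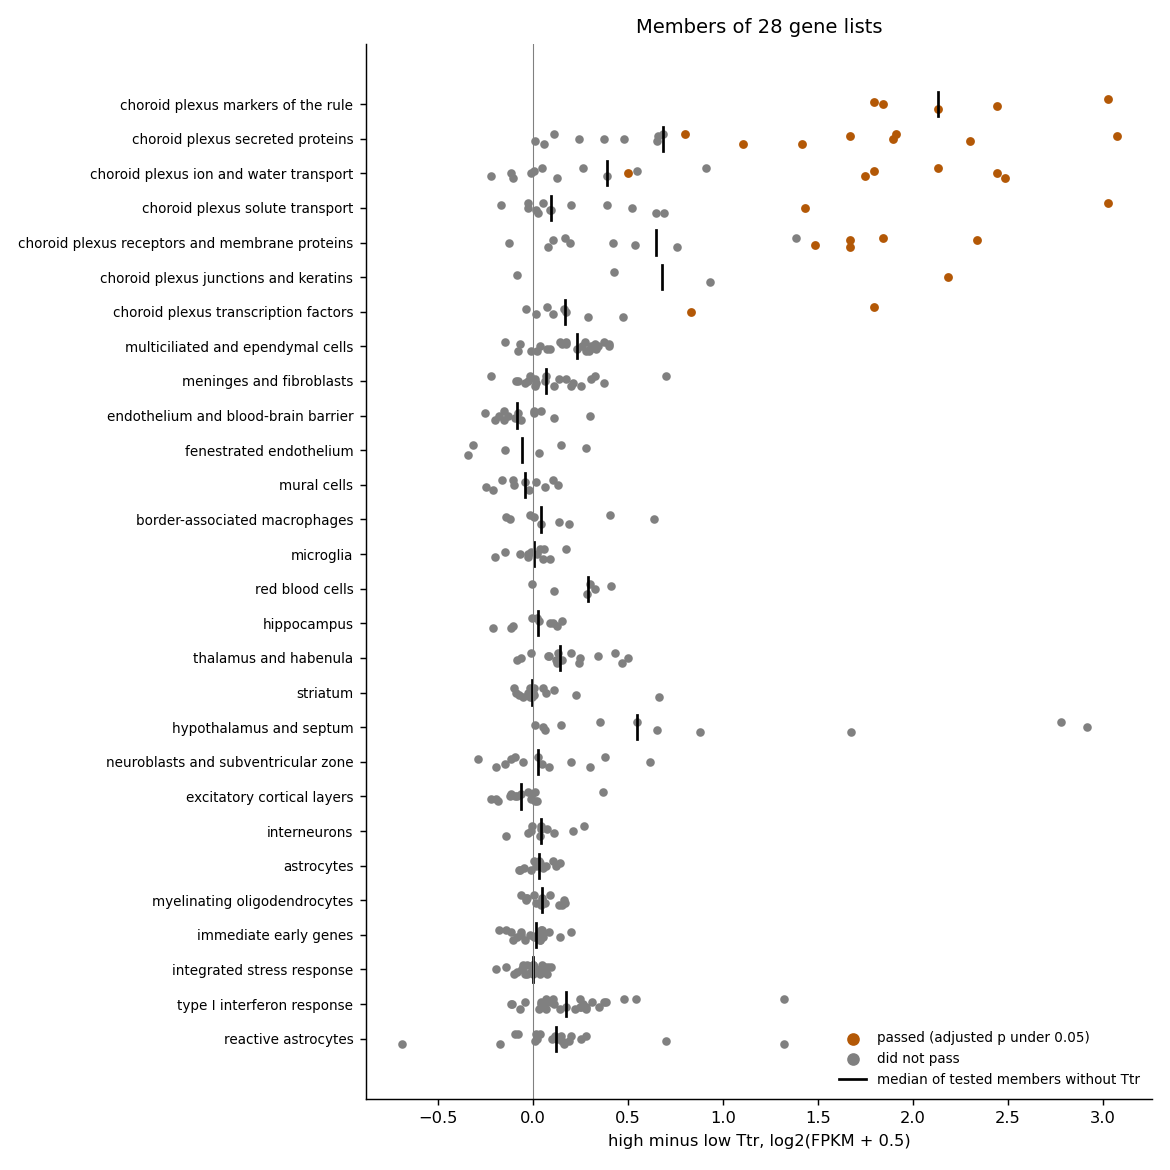
High minus low difference on the log2(FPKM + 0.5) scale (horizontal axis) for each tested member of 28 gene lists other than Ttr (points; orange, passed; grey, did not pass) with the list median (bar). Orange points occur in the 7 choroid plexus lists and in no other, and the hypothalamus list has 3 grey points above 1.5.

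Levels of hypothalamic neuropeptides did not follow the order of Ttr among the libraries. All 11 tested members of the hypothalamus and septum list were positive, with a median of 0.55 and none that passed, and the list summed to 26.8 to 144 FPKM in the high libraries against 28.9 to 44.5 FPKM in the low libraries. Avp, vasopressin, had 0.12, 21.0 and 7.35 FPKM in BKO 1, 2 and 5 and 17.1, 13.2 and 24.5 FPKM in ctrl 1, 3 and 5, against 1.01 and 0.57 FPKM in BKO 3 and 4 and 0.95 and 0.90 FPKM in ctrl 2 and 4. BKO 1, with the second highest Ttr, was thus the lowest of all 10 libraries for Avp, and ctrl 5, with the lowest Ttr of the high libraries, was the highest. Oxt, oxytocin, was at 30.8 FPKM in ctrl 5, at 2.77 to 6.71 FPKM in BKO 2, BKO 5, ctrl 1 and ctrl 3, at 0.54 FPKM in ctrl 2 and listed at 0 in BKO 1, BKO 3, BKO 4 and ctrl 4. Pmch, melanin-concentrating hormone, was highest in ctrl 5 (11.2 FPKM), BKO 2 (7.81 FPKM) and ctrl 3 (4.86 FPKM) and at most 1.25 FPKM elsewhere. Nts, neurotensin, had 10.8 to 23.8 FPKM in the high libraries and 6.18 to 11.6 FPKM in the low libraries (0.88, SE 0.179), with overlap through BKO 1. Without BKO 1, Avp (log2 difference 3.53), Oxt (3.51) and Nts (1.00) did pass high minus low in limma and Pmch (1.97) did not. Nts also passed with the replicate number as a block (1.18). In that fit high minus low rests on BKO 2 and 3 and ctrl 2 and 3, the same-numbered libraries that differ in class. The absence of calls in this list thus depends on BKO 1 and on the model. The part of hypothalamic tissue in the high minus low difference was not tested.

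**Figure D4:**
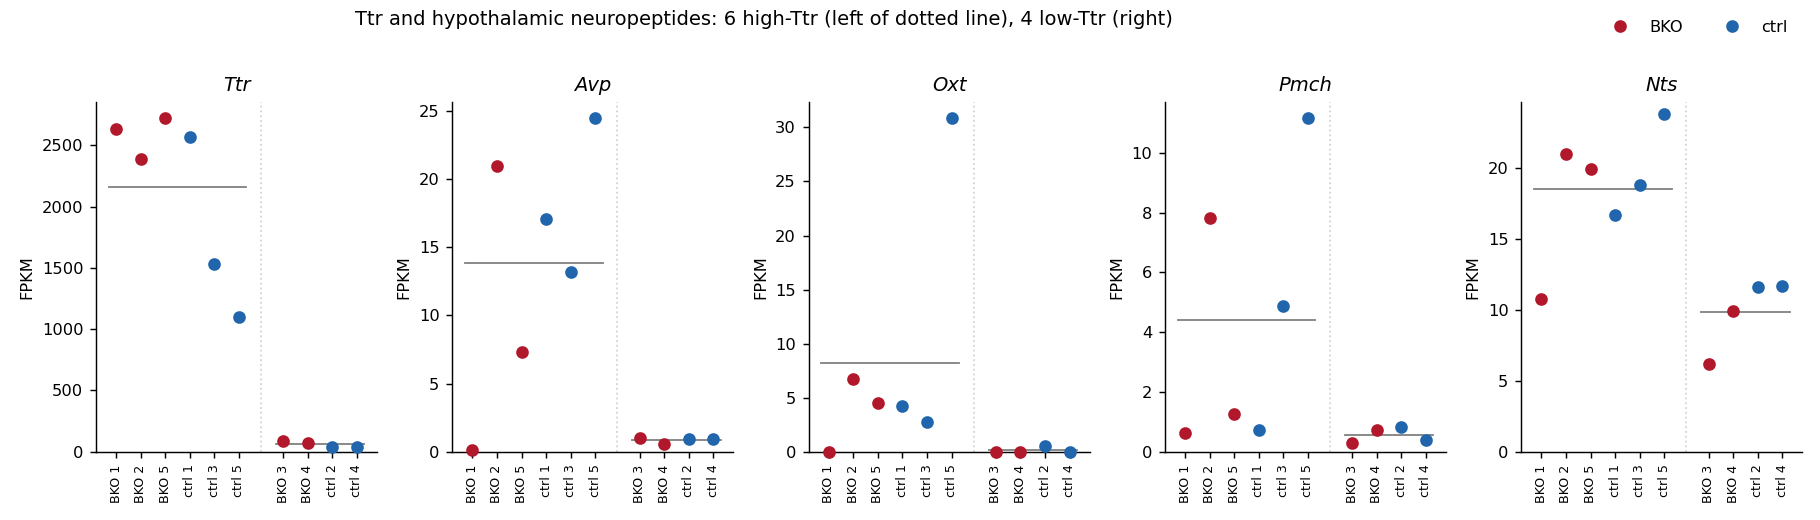
FPKM of Ttr and of 4 hypothalamic neuropeptide genes in each library, with the 6 high-Ttr libraries left of the dotted line and the 4 low-Ttr libraries right of it (points, libraries coloured by genotype; bars, class means). BKO 1 has 2632 FPKM of Ttr and 0.12 FPKM of Avp, whereas ctrl 5 has 1098 FPKM of Ttr and 24.5 FPKM of Avp.

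Within the high class the libraries were not alike. Of the 29 genes, 18 had their lowest high value in ctrl 5, 7 in ctrl 3 and 4 in BKO 1. The excess of a gene over the low libraries of the same genotype was divided by the excess of Ttr, and is given per 1000 FPKM of Ttr. For Ecrg4 this was 8.00 to 10.8 FPKM in the 6 libraries, for Sostdc1 1.76 to 2.43 FPKM and for Enpp2 44.6 to 65.7 FPKM, with the highest library 1.35, 1.38 and 1.47 times the lowest for Ecrg4, Sostdc1 and Enpp2. Folr1 had 2.04 to 4.13 FPKM and Kcnj13 1.89 to 4.23 FPKM. Aqp1 varied most of the choroid genes followed, with 0.236 FPKM in ctrl 5 and 1.51 FPKM in BKO 5. Otx2 had 0.586 FPKM in ctrl 3 and 2.53 FPKM in ctrl 5, and Calml4 had 0.613 FPKM in BKO 1 and 3.31 FPKM in ctrl 5. The proportions are of single libraries and have no error of their own.

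The high minus low difference was then compared between BKO and ctrl libraries. No gene passed for the interaction of genotype and class (0 of 14447, 0%; limma), and 537 had an unadjusted p under 0.05. All 29 genes were positive in each genotype, at 0.51 to 3.27 within BKO and 0.42 to 2.88 within ctrl, and 25 were larger within BKO. Over all genes the median of the interaction was -0.00484. Ttr itself was not alike in the genotypes, with ctrl 3 and ctrl 5 the lowest of the high libraries. Whether that underlies the count of 25 was not tested. Of the 29, 4 had an unadjusted interaction p under 0.05, among them Enpp2, which differed by 1.39 within BKO and 0.82 within ctrl (SE 0.140 each; unadjusted p = 0.0143 and adjusted p = 0.999 by limma). The smallest adjusted p among the 29 was 0.999. In the same fit, 22 genes passed high minus low within BKO (0.152%) and 4 within ctrl (0.0277%). These counts moved when single libraries were left out. Within BKO 8 passed without BKO 5 and 9 without BKO 2, and within ctrl 1 passed without ctrl 1 and 15 without ctrl 5. Leaving out BKO 3 or BKO 4 also lowered the count within BKO, and leaving out ctrl 2 that within ctrl.

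Genotype comes from the labels and was not used to cut the classes, but its calls can change with the class in the model. With the class term 834 genes passed (480 higher and 354 lower in BKO; 5.77% of genes tested), and without it 836 did (480 and 356; 5.79%). With log2 Ttr in place of the class 780 passed (442 and 338), and with each library scaled to an equal sum without the choroid plexus genes 863 passed (566 and 297). That scaling moved BKO minus ctrl over all genes, with a median of 0.0217 beside -5.25e-05 in the main fit. The fits with and without the class term shared 799 genes, 35 passed only with the term and 37 only without it. Those 37 had limma adjusted p-values of 0.0502 to 0.0645 with the term. Ttr, which set the classes, is counted here: it was 1 of the 35 and was higher in BKO. Genotype lists moved little: 24 of 29 integrated stress response genes were higher in BKO with the term and 25 without it, 18 of 29 interferon genes and 11 of 20 reactive astrocyte genes were higher either way, and all 15 myelin genes were lower either way. In the fit with the interaction, which uses all 10 libraries, BKO minus ctrl had 422 calls within the high class (2.92%) and 318 within the low class (2.2%). The 318 rests on 2 libraries of each genotype, and the count fell when any of these was left out. For the 29 genes that vary with Ttr, the median SE of the BKO minus ctrl difference was 0.203 with the term and 0.478 without it, against 0.0777 and 0.0783 over all genes; these genes were picked for their variation with the class, so that fall follows from the choice. Of the 29, 2 passed by genotype with the term, Col9a3 and Apln, and 1 without it, Apln.

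Col9a3, a chain of collagen IX, had 11.3, 13.9 and 16.0 FPKM in BKO 1, 2 and 5 and 9.77, 7.46 and 8.48 FPKM in ctrl 1, 3 and 5 of the high class, and 8.08 and 7.23 FPKM in BKO 3 and 4 and 4.80 and 4.51 FPKM in ctrl 2 and 4 of the low class. BKO libraries were above ctrl libraries within each class, but the genotypes overlapped across classes. BKO minus ctrl was 0.65 (SE 0.101), with a limma adjusted p of 0.00102 with the class term and 0.138 without it. The class term leaves Ttr uneven between the genotypes. Mean Ttr of the low class was 2.00 times as high in BKO as in ctrl, and ctrl 3 and 5 had the lowest Ttr of the high class. With log2 Ttr in place of the class, BKO minus ctrl of Col9a3 was 0.53 (limma adjusted p = 0.00389). The part of Ttr in the Col9a3 difference was not tested further. Apln had 10.5, 10.7 and 13.3 FPKM in BKO 1, 2 and 5 and 27.7, 22.5 and 24.8 FPKM in ctrl 1, 3 and 5, and 7.21 and 6.21 FPKM in BKO 3 and 4 and 18.9 and 18.0 FPKM in ctrl 2 and 4. All BKO libraries were below all ctrl libraries (-1.21, SE 0.0919), and within each genotype the high libraries were above the low ones. Enpp2 did not pass by genotype (-0.34, SE 0.120; limma adjusted p = 0.141): in the high class the genotypes overlapped, and in the low class it had 75.9 and 76.4 FPKM in BKO and 120 and 125 FPKM in ctrl. The high libraries had 200 ± 13.6 FPKM in BKO and 220 ± 51.1 FPKM in ctrl (SD, n = 3 each). Enpp2 did pass by genotype without ctrl 5 (-0.47, limma adjusted p = 0.00363), with log2 Ttr in place of the class (-0.51, 0.0128) and in the 4 low libraries alone (-0.68, 0.00187); its other alternatives had adjusted p-values between 0.0911 and 0.825.

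Among the genes that passed by genotype only with the class term were Gmfg, an actin regulator of blood and immune cells (0.83, SE 0.185; limma adjusted p = 0.0155 with the term and 0.0751 without it), and Gfra1, a co-receptor for glial-derived neurotrophic factor (-0.34, SE 0.0748; 0.0155 with and 0.0794 without). Gfra1 no longer passed without BKO 4 (limma adjusted p = 0.0526). Gmfg was 2.87 to 3.80 FPKM in BKO and 0.95 to 1.67 FPKM in ctrl within the high class, with no overlap, and 4.42 and 3.87 FPKM in BKO and 3.91 and 2.70 FPKM in ctrl within the low class, with overlap. Xlr also passed only with the term (0.84, SE 0.203; limma adjusted p = 0.0260), and leaving out ctrl 1, ctrl 2, ctrl 4, BKO 3 or BKO 4 in turn ended that call, at adjusted p-values of 0.0551 to 0.0771. Xlr also did not pass with log2 Ttr as the covariate (limma adjusted p = 0.0596) or with no filter (0.0512). Genes that passed only without the term included Ahnak (0.36, SE 0.0991; 0.0512 with and 0.0400 without), Bcar3 (0.26), Ppp1r16b (-0.21) and Cat, catalase (0.23), all just beyond the threshold with the term. With the term Ahnak passed without BKO 1, Cat without ctrl 5 or BKO 5, and Ppp1r16b without ctrl 3. Cxcl10, an interferon-induced chemokine, passed either way (1.94, SE 0.319; limma adjusted p = 0.00160 with and 0.0214 without). Cxcl10 had 3.83, 6.44 and 6.01 FPKM in BKO and 1.47, 0.17 and 2.36 FPKM in ctrl of the high class, and 2.47 and 1.47 FPKM in BKO and 0 and 0.22 FPKM in ctrl of the low class. The genotypes did not overlap within either class. Fitted in the 6 high libraries alone, Cxcl10 had a limma adjusted p of 0.0508, Gfra1 0.144 and Xlr 0.367, while Col9a3 (0.0382) and Gmfg (0.00849) passed. In the 4 low libraries alone Col9a3 had a limma adjusted p of 0.0990, Gmfg 0.658, Gfra1 0.342 and Xlr 0.0752, while Cxcl10 (0.0258) passed.

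**Figure D5:**
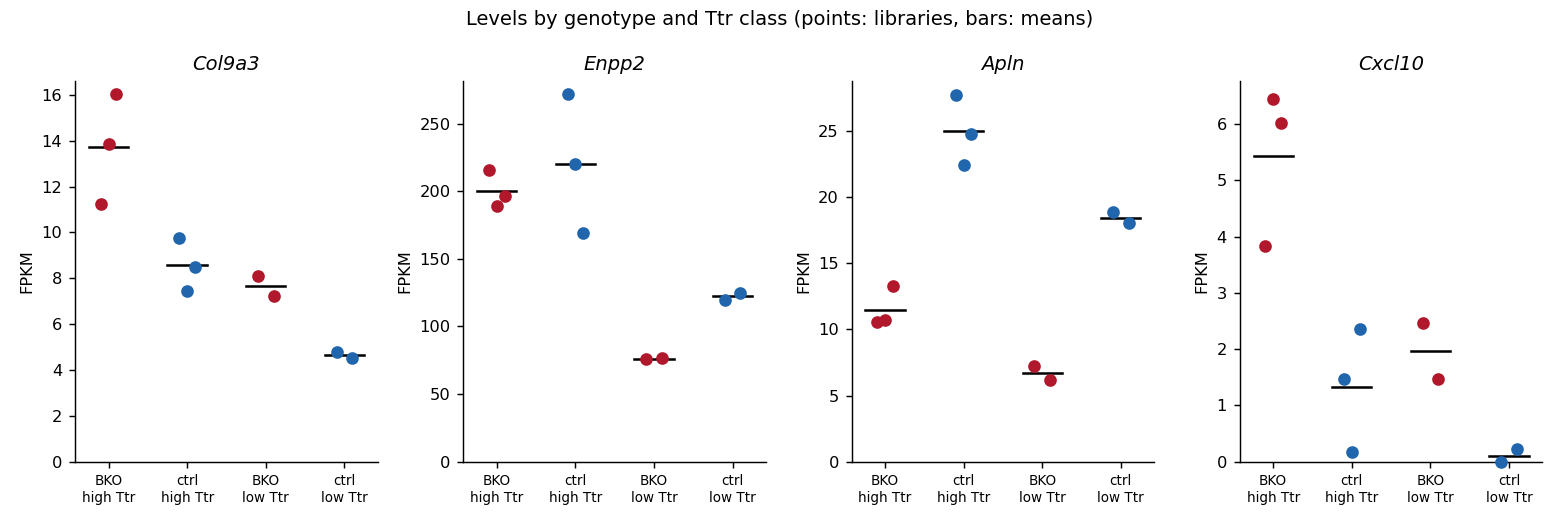
FPKM of Col9a3, Enpp2, Apln and Cxcl10 in BKO and ctrl libraries of the high-Ttr class (3 each) and the low-Ttr class (2 each) (points, libraries; bars, group means). BKO is above ctrl within each class for Col9a3 and Cxcl10 and below for Apln, while for Enpp2 the genotypes overlap in the high class and BKO is lower in the low class.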

How the data were processed

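The authors deposited FPKM values for 22198 genes in 10 libraries, with 0 columns of other samples. The submitters' processing notes name STAR, HTSeq and mm39; versions, filters and the FPKM formula are not given in the sources used here. No counts were at hand, so no count test was run and depth behind each value is unknown. Genes at 0.5 FPKM or more in at least 5 of 10 libraries were tested, on log2(FPKM + 0.5), with limma 3.58.1 in R 4.3.3 (variance trend, 2-sided, Benjamini-Hochberg over all genes tested, threshold 0.05). The model held genotype, taken from the labels, and Ttr class; a fit with their interaction gave the differences within each genotype and class. SE is limma's moderated standard error. Ttr was left out of the counts for high minus low but stayed in the fit and in the Benjamini-Hochberg adjustment. No p of a single gene is given for high minus low. Summaries and figures were made with Python 3.11.15. The procedure was tested on simulated data.

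The members, the 28 gene lists and the alternatives were chosen with earlier results of these data known. Of the list members, 7 were matched through older symbols and 4 were not in the table. Named throughout are Ttr, Folr1, Kl, Aqp1, Clic6, Kcnj13, Otx2, Foxj1 and Chchd3, then the 10 largest differences among genes that passed with at least 1 FPKM in the higher class and an ordinary gene name, up to 4 members of each list by moderated t, and up to 4 genes whose genotype call was gained or lost with the class term. Further genes, such as Igf2, Slc12a2, Slc17a7, Cxcl10 and Enpp2 by genotype and the rest of the 29, were named after their values were seen. Alternatives changed the pseudocount, the filter, the scaling, the covariates, the class term and the libraries used.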

Additional observations from a re-analysis of the deposited data

Results flagged for a closer look

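In 66 genes, each with 4 groups of 4 to 6 libraries (264 groups), the highest or lowest library was set apart from its group by Dixon's criterion 18 times; chance flags about 1 in 20 groups. BKO 5 stood apart for haemoglobin: Hbb-bs had 442.5 FPKM there among both the high libraries and the BKO libraries, Hba-a1 223 FPKM in the same pair of groups, Hbb-bt 33.0 FPKM and Hba-a2 33.3 FPKM among the high libraries. In ctrl 5, Oxt had 30.8 FPKM, apart from the other high libraries and the other ctrl libraries, and Rsph1, a ciliary gene, had 8.40 FPKM, above 5.32 to 6.03 FPKM in the other ctrl libraries. Oxt was at 0.54 FPKM in ctrl 2, where the other low libraries were listed at 0, and Pmch was at 7.81 FPKM in BKO 2, above 0.29 to 1.25 FPKM in the other BKO libraries.

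Among the low libraries, Kcne2 was at 0.43 FPKM in ctrl 2, Wfdc2 at 0.25 FPKM and Lbp at 2.29 FPKM in ctrl 4, and Bgn, a proteoglycan, at 6.74 FPKM in BKO 4, each the highest of the class and apart from it. Msx1 was at 3.83 FPKM in BKO 5, apart from 2.84 to 3.11 FPKM in the other high libraries. Among the ctrl libraries, Fmod was lowest in ctrl 2 at 2.63 FPKM, against 4.97 to 5.62 FPKM, and Ahnak was highest in ctrl 1 at 2.98 FPKM, against 2.69 to 2.77 FPKM.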

How the results depend on the processing

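High minus low called 29 genes, 23 without the genotype term, and 23 to 34 when 1 library was left out (34 without ctrl 5 and without BKO 1, each 33 higher and 1 lower). With a filter of 2 FPKM 17 passed, which were all of the 29 that this filter left in the test. Clic6, Ecrg4, Folr1, Kcnj13 and Sostdc1 passed under all 23 settings tried, Apln under 16 of 23, Trpm3 under 13 of 23 and Cibar2 under 7 of 22. Genotype calls, 834 in all, were 614 to 802 with 1 library left out, 393 in the 6 high libraries alone and 251 in the 4 low ones alone. The interaction had 0 to 1 genes with 1 library left out, the 1 without ctrl 4. Settings for the 4 contrasts inside a genotype or class were added after seeing the data. Within BKO 22 genes passed high minus low, 9 with no filter, 10 at 2 FPKM and 2 to 25 with 1 library left out. Within ctrl 4 passed, 7 with a pseudocount of 0.1, 0 with no filter and 0 to 15 with 1 library left out. BKO minus ctrl within the high class had 422 calls (289 to 448 with 1 library left out), and within the low class 318 (157 to 337). Msln, at -0.09 for high minus low, was -0.25 to 0.0590 with 1 library left out (0.0551 without ctrl 4 and 0.0590 without BKO 1). The cause was not tested. Depth is unknown, so how precisely low levels are measured is not known.

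Replicate numbers did not pair the samples: same-numbered libraries had correlations of -0.169 to 0.0855, and not every library correlated best with its own number. With the replicate number as a block, 7 genes passed high minus low, 6 of the 29 (Clic6, Cldn2, Ecrg4, Folr1, Kcnj13 and Sostdc1) and the hypothalamic Nts (1.18), and 705 passed by genotype. Same-numbered libraries differed in class for replicates 2 and 3 only. High minus low under the block therefore rests on BKO 2 and 3 and ctrl 2 and 3, so the 7 and the 29 do not rest on the same libraries. The block gave 4 genes within BKO, 2 within ctrl, 224 within the high class and 146 within the low class. Under it Msln was 0.28 and Hba-a1 -0.15, both reversed in sign, and the genotype call of Gfra1 was lost (limma adjusted p = 0.0641).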

Other observations

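Among the low libraries BKO 4 stood above the others in Igf2 and Slc13a4, a sulfate transporter of meninges and choroid plexus, named after their values were seen. Igf2 had 10.4 and 32.5 FPKM in BKO 3 and 4 and 9.12 and 11.3 FPKM in ctrl 2 and 4. Slc13a4 had 1.68 and 7.12 FPKM in BKO 3 and 4 and 2.44 and 3.01 FPKM in ctrl 2 and 4, while the high libraries had 2.74 to 5.78 FPKM. In the same library Ttr was 67.2 FPKM and Folr1 0.57 FPKM, both far below the high libraries.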
